A study of Mus musculus with 6 samples.

Results

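Haploid sperm genes are genes that germ cells of the testis transcribe after meiosis, while round spermatids become sperm. Some of them, such as Ldhc, are also genes of spermatocytes. The 10 genes examined are Tnp1, Tnp2, Prm1, Prm2, Zpbp, Tuba3a, Ldhc, Pgk2, Akap4 and Odf1. They were followed through every probe that the platform annotation assigns to one of these symbols alone, which gave 17 of the 46619 probes in the deposited table. Each array carried RNA from sorted medullary thymic epithelial cells (mTECs) whose surface MHC class II was high, taken from C57Bl/6 mice. Wild-type mice gave 3 of the arrays and Aire knockout mice the other 3. Wild-type replicates 1 and 3 and knockout replicate 2 were female, and the other arrays were male. Wild-type replicates 1 and 2 and knockout replicate 1 were on beadchip 1, and the others on beadchip 2. The date labels of wild-type replicates 1 and 2 are earlier than those of the remaining 4 arrays. The labels leave out the age of the mice, the knockout allele and whether animals were pooled, so p-values measure only the spread between these samples, which may be technical.

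Spermatids replace the histones of their nucleus first with transition proteins (Tnp1, Tnp2) and then with protamines (Prm1, Prm2), which pack the DNA of the sperm head. Other products of sperm-forming cells build the acrosome and the tail, or supply sperm with their own forms of glycolytic enzymes. These proteins first appear at puberty, behind the blood-testis barrier, and are classical targets of autoimmunity against sperm. mTECs transcribe many genes of single peripheral tissues and so display their products to developing T cells, and Aire is the transcriptional regulator known for driving a large share of this expression. The comparison of wild-type with knockout arrays asks which of these transcripts depend on Aire.

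The background of the arrays remains in the deposited log2 values. Its mode lay at 6.21 to 6.22 on every array, and a probe was taken as above background past the mode plus 3 SD, the background bound, which was 6.80 to 6.82. A probe was tested when it passed the bound on at least 3 of the 6 arrays, which 19482 probes (41.8%) did. Arrays of 1 genotype correlated with Pearson r of 0.983 to 0.994 across the tested probes, and arrays of different genotypes with 0.909 to 0.935, where probes are not independent replicates. Aire fell on both of its probes (log2 changes of −3.31, SE 0.12, and −2.32, SE 0.19; limma adjusted p = 4.7e-08 and 1.06e-05), which matched the genotype labels of all 6 arrays. All 12 mTEC marker genes with a probe passed the bound, but besides Aire the keratins Krt5 (−1.83, SE 0.28, adjusted p = 6.68e-04) and Krt14 (−0.70, SE 0.13, adjusted p = 0.00199) fell, and Tnfrsf11a (+0.51) and H2-Aa (+0.45) rose. Of the 13 testis somatic markers the Sertoli and Leydig cell genes Amh, Fshr, Hsd3b6 and Insl3 passed it on no array. The other 9 were tested, among them Cyp17a1, Cyp11a1, Hsd17b3, Dhh and Inha, which also belong to those cells. Of the 19 meiotic germ cell markers 11 passed it on no array, among them Sycp2, Sycp3, Dmc1, Dazl and Stra8.

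RefSeq promoter sequences (GRCm38.p6) were found for 9 of the 10 genes, all but Odf1. Haploid genes are known targets of CREM, a transcription factor of spermatids that binds the cAMP response element (CRE). The promoters of the 4 chromatin-packing genes are shown because these genes share a function, while the signs of their changes differed. Among them Tnp1 was not tested with the filter, and Prm2 missed the threshold (limma adjusted p = 0.051). Each run holds the 250 bases before the transcription start, 5′ to 3′ on the gene's strand. Capitals mark matches to the CRE-like motif TGANGTCA on either strand.
Tnp1 (chr1:73015900-73016149, minus strand): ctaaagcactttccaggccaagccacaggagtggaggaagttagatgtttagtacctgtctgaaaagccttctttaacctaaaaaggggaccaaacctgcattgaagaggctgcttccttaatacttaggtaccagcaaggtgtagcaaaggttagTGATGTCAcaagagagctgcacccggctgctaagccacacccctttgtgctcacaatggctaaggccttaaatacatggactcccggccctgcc
Prm1 (chr16:10796824-10797073, minus strand): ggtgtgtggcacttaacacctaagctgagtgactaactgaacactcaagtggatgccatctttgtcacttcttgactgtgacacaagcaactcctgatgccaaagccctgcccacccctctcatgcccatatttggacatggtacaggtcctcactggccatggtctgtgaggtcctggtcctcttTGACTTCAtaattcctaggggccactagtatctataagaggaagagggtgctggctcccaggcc
Prm2 (chr16:10792106-10792355, minus strand): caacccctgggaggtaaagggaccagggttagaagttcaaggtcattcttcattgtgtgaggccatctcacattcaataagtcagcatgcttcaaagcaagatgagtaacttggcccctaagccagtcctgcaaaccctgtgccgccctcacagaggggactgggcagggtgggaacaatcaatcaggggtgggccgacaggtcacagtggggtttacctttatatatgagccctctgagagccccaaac
Tnp2 (chr16:10788656-10788905, minus strand): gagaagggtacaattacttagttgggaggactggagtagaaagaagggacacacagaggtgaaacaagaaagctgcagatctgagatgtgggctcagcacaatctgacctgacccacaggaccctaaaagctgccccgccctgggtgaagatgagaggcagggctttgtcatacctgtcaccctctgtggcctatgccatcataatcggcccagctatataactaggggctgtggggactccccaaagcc
Tnp1 holds the match TGATGTCA with its first base 94 bases before the start, and Prm1 holds TGACTTCA, a match on the opposite strand, 64 bases before it. No match to these letters was in the windows of Prm2 and Tnp2. Akap4 also holds TGATGTCA, 35 bases before the first of its 2 listed starts, and Ldhc holds the shorter CRE core TGACG 61 and 47 bases before the first of its 2 starts. Of 32851 mouse promoter windows of this length, 7.49% hold TGANGTCA and 17.8% hold TGACG, where the complete TGACGTCA counts towards both and is in 1.55%. These motifs were searched with the sequences known, and a match is a description of the letters. Whether a match goes with the change of a gene was not tested.

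The 10 genes did not move as 1 group without Aire. Prm1, Ldhc and Odf1 fell. Tnp2, Zpbp and part of the Tuba3a probes rose by less than 0.5 log2 units, where the median change of all tested probes was +0.10. None of these rises kept its call after cyclic loess between arrays or with housekeeping genes set equal. Pgk2 and Akap4 stayed at the background of the array in both genotypes. Prm2 was higher in the knockout without passing the test, and Tnp1, just at the bound in wild type, was lower. Of the 17 probes 11 (7 genes) were tested. Among these, 5 rose and 4 fell, where 20.7% of all tested probes rose and 17.7% fell (38.4% together). Of the 4 that fell, 3 (both Ldhc probes and the Odf1 probe) passed the filter only through the wild-type arrays and so had to differ. With no filter on dim probes, 5 of the 17 rose and 5 fell, beside 8.48% and 8.56% of all probes (17% together). The plot of values by array shows all 17 probes against the bound.

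**Figure D1:**
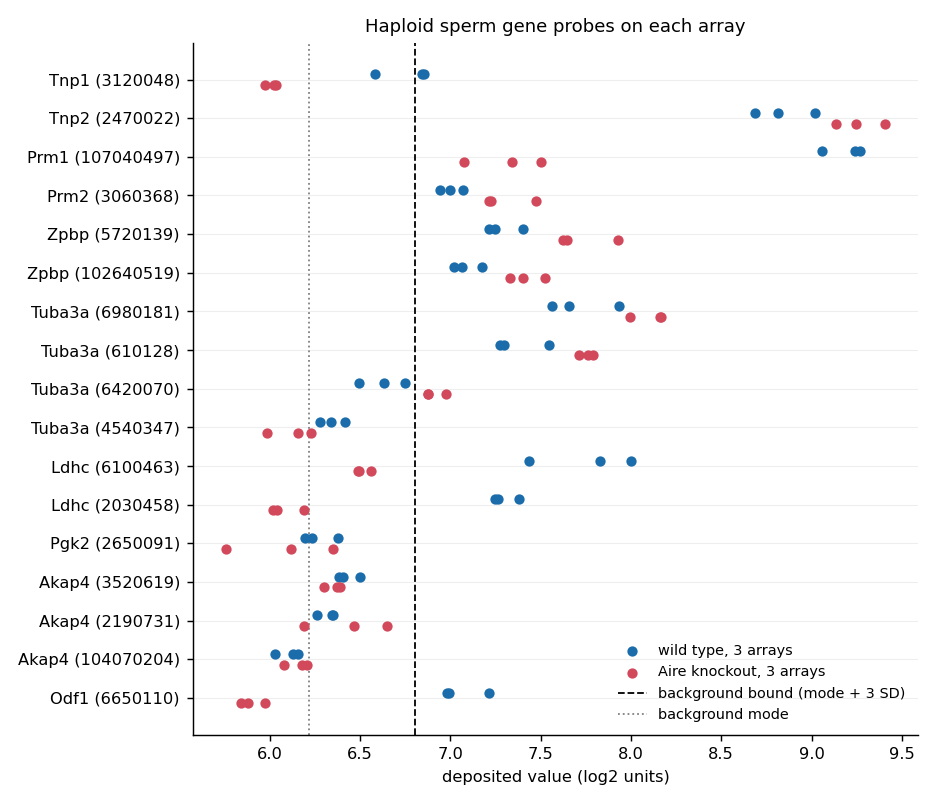
Deposited log2 values of the 17 probes (probe number in brackets) on 3 wild-type arrays (blue) and 3 Aire knockout arrays (red), 1 point per array, with the mean background mode (dotted line) and the mean background bound, the mode plus 3 SD (dashed line). Prm1, Ldhc, Odf1 and Tnp1 lie further right in wild type, Tnp2, Prm2, Zpbp and Tuba3a lie slightly further right in the knockout except for 1 Tuba3a probe, and Pgk2 and Akap4 lie left of the bound on all 6 arrays.

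The chromatin-packing genes did not move together. Prm1, a small arginine-rich protamine, read 9.24, 9.06 and 9.27 in wild-type replicates 1, 2 and 3. It read 7.34, 7.50 and 7.08 in the same order in the knockout. The groups were far apart, and all 6 values stood above the bound. The wild-type mean was 9.19 ± 0.11 and the knockout mean 7.31 ± 0.22 (SD, n = 3 each). The change was −1.88 log2 units (SE 0.13, limma adjusted p = 2.83e-06), or 3.69-fold lower. The scale was taken as log2 from the range of the values, and the background left in them makes the fold of a dim probe an understatement. In the sorted bulk RNA, fewer cells with a transcript and less of it per cell cannot be told apart.

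Tnp2, a transition protein that precedes the protamines, went the other way. It read 8.81, 8.69 and 9.02 in wild type and 9.41, 9.14 and 9.24 in the knockout. The groups did not overlap, but the gap between the highest wild-type and the lowest knockout array was small. The means were 8.84 ± 0.17 and 9.26 ± 0.14 (SD, n = 3 each), a change of +0.42 (SE 0.12, limma adjusted p = 0.0203). Prm2, the second protamine, which is made as a precursor and trimmed in the spermatid, read 6.998, 6.94 and 7.07 in wild type and 7.47, 7.22 and 7.22 in the knockout, all above the bound and with no overlap. Its change of +0.30 (SE 0.11) narrowly missed the threshold (limma adjusted p = 0.051).

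Tnp1, the more abundant transition protein of mouse spermatids, was dim. It read 6.58, 6.85 and 6.84 in wild type, of which 2 arrays passed the bound, and 5.98, 6.04 and 6.02 in the knockout, below the mode of the background. It was therefore not tested with the filter. In the fit over all 46619 probes its change was −0.75 (SE 0.09, limma adjusted p = 8.5e-04), with groups that did not overlap.

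Zpbp encodes a protein of the acrosome that is needed for its compact form and that binds the coat of the egg. Its probe 5720139 read 7.21, 7.25 and 7.41 in wild type and 7.93, 7.62 and 7.65 in the knockout. Its other probe (102640519) read 7.18, 7.07 and 7.02 and then 7.53, 7.40 and 7.33. The signal of both probes was above the bound on all arrays and higher on every knockout array than on any wild-type array. The changes were +0.44 (SE 0.12, limma adjusted p = 0.0138) and +0.33 (SE 0.10, adjusted p = 0.0271).

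Tuba3a, an alpha-tubulin of the testis, has 4 probes, and they did not all point the same way. Probe 6980181 read 7.56, 7.66 and 7.93 in wild type and 8.16, 7.99 and 8.16 in the knockout (+0.39, SE 0.12, limma adjusted p = 0.0283). Probe 610128 read 7.28, 7.30 and 7.55 and then 7.71, 7.79 and 7.76 (+0.38, SE 0.11, adjusted p = 0.0183). Both rose with no overlap between the genotypes, and probe 6980181 lost its call with chip as a block (+0.35, limma adjusted p = 0.0649) and with sex as a covariate (+0.38, adjusted p = 0.0593). Probe 6420070 passed the bound on the 3 knockout arrays only, with a change of +0.28 (SE 0.10) that missed the threshold (limma adjusted p = 0.0536). It was tested through those arrays alone, so its genotypes had to differ. Probe 4540347 was below the bound on all 6 arrays, and there the knockout was lower by a mean of 0.22, at a wild-type mean of 6.34 ± 0.07 and a knockout mean of 6.12 ± 0.12 (SD, n = 3 each; limma adjusted p = 0.126 in the fit over all probes). Tuba3b, a near-identical gene, rose from 7.58 ± 0.10 to 8.29 ± 0.09 on its probe (+0.71, SE 0.10, adjusted p = 4.46e-04), and which copy each probe reads was not tested.

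Ldhc is the lactate dehydrogenase of spermatocytes, spermatids and sperm. Its probe 6100463 read 7.43, 7.83 and 8.00 in wild type and 6.56, 6.49 and 6.50 in the knockout. Probe 2030458 read 7.25, 7.26 and 7.38 and then 6.02, 6.19 and 6.04. Every wild-type value was above the bound and every knockout value below it. The changes were −1.24 (SE 0.14, limma adjusted p = 1.03e-04) and −1.21 (SE 0.10, adjusted p = 1.05e-05), in similar size on both probes. Both probes passed the filter only through wild type, so a difference was a condition of these p-values. The fit over all probes has no such condition. There the limma adjusted p was 5.85e-04 for probe 6100463 and 3.21e-05 for probe 2030458. Against the lowest signal above the bound, Ldhc was at least 1.93-fold lower by the first probe and at least 1.41-fold lower by the second.

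The somatic relatives of Ldhc are its chromosomal neighbour Ldha, the muscle form, and Ldhb, the heart form. Ldha went from 12.78 ± 0.08 to 12.48 ± 0.18 (SD, n = 3 each; −0.30, SE 0.12, limma adjusted p = 0.0668). Ldhb fell from 12.84 to 12.21 on its brighter probe (−0.63, SE 0.09, adjusted p = 5.78e-04), while the other probe missed the threshold (−0.45, adjusted p = 0.099). Pgk2, the phosphoglycerate kinase of sperm, read 6.38, 6.20 and 6.23 in wild type and 6.12, 5.76 and 6.35 in the knockout, all below the bound and with overlapping groups. Its somatic counterpart Pgk1 was well above background, at 11.09 in wild type and 11.22 in the knockout (limma adjusted p = 0.504) and did not pass the test.

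The genes of the sperm tail differed as well. Odf1, a cysteine-rich protein of the outer dense fibres, read 6.98, 6.996 and 7.21 in wild type and 5.88, 5.84 and 5.97 in the knockout. The wild-type arrays were just above the bound and the knockout arrays below the mode of the background. The change was −1.17 (SE 0.10, limma adjusted p = 1.95e-05), and the bound put it at least 1.20-fold lower. The Odf1 probe passed the filter only through wild type, so a difference was a condition of this p-value. In the fit over all probes, which has no such condition, the limma adjusted p was 6.60e-05. Akap4, the main protein of the fibrous sheath and an X-linked gene, was below the bound on all 6 arrays by each of its 3 probes. Its values ran from 6.03 to 6.65, and the genotypes overlapped on all 3 probes (changes of −0.08, +0.12 and +0.05).

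Over all 17 probes, the knockout was higher with no overlap on 7 and lower with no overlap on 6, beside 20.6% and 13.2% of all probes, and the groups overlapped on 4. Among the 11 tested these counts were 7 and 4, beside 31.8% and 21% of all tested probes. For some of the 11 the filter fixed the separation in advance. Both Ldhc probes and the Odf1 probe passed it only through wild type, and Tuba3a probe 6420070 only through the knockout. The median change of all tested probes was +0.10, so relative to it the rises of Tnp2, Zpbp and Tuba3a came to +0.23 to +0.34. At their level these rises were of common size. Tnp2 at +0.42 lay between the 75th percentile (+0.34) and the 95th (+0.90) of the 1401 tested probes with a mean of 9 to 9.5. Prm1 at −1.88 was below the 5th percentile (−1.73) of the 1871 tested probes with a mean of 8 to 8.5. The Odf1 and Ldhc probes are drawn at their values, and since a fall was a condition of their passing the filter, their place among the percentiles is no result. The plot of change against level shows where each probe lay.

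**Figure D2:**
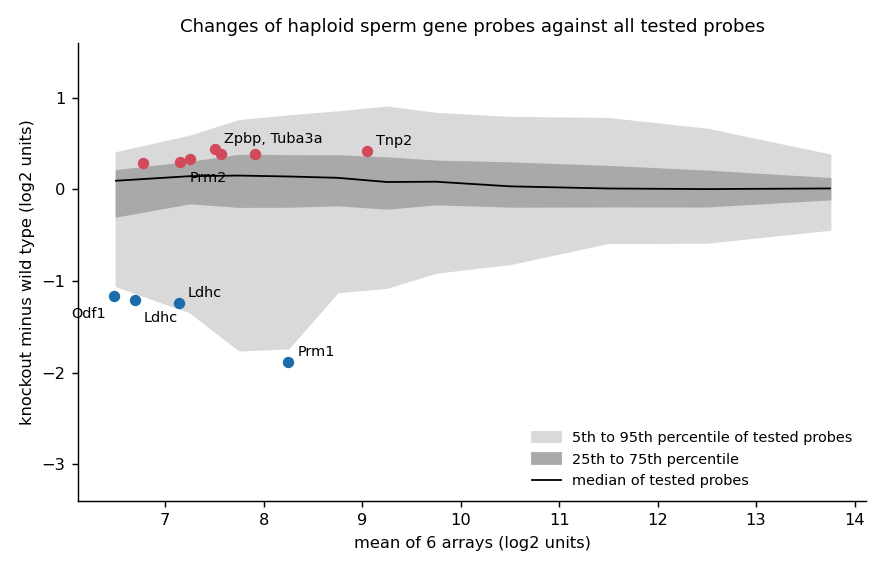
Knockout minus wild type (log2 units) against the mean of the 6 arrays for the 11 tested probes (red for higher, blue for lower), over the median, the 25th to 75th and the 5th to 95th percentiles of all tested probes in bins of level. The red points lie above the median and within the 95th percentile, while Prm1 lies below the 5th percentile. The Odf1 and Ldhc probes passed the filter only through wild type, and Tuba3a probe 6420070 only through the knockout.

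Prm1, which was above the bound on all 6 arrays, passed in every alternative besides the within-chip and date label fits, which are not read as tests. Over all alternatives its changes lay between −2.15 and −1.77. None of the 5 rising probes passed after cyclic loess between arrays, with housekeeping genes set equal or with the date label as a covariate. Within a chip 1 genotype also has a single array, whose spread is assumed to be that of the other genotype's pair. Changes within a chip and with the date label are therefore given as values with no test. Prm1 was −1.81 within chip 1 and −1.98 within chip 2. Tnp2 was +0.66 within chip 1 and +0.17 within chip 2, and +0.24 with the date label as a covariate. Zpbp probe 5720139 was +0.70 and +0.23 within the chips, and Tuba3a probe 6980181 was +0.55 and +0.15. All 5 rises were larger within chip 1, where both wild-type arrays bear the earlier date label and the knockout array the later, so that genotype and date label cannot be told apart there. Without knockout replicate 1 the call of Tuba3a probe 610128 alone remained, and without wild-type replicate 2 that of Zpbp probe 5720139 alone.

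**Figure D3:**
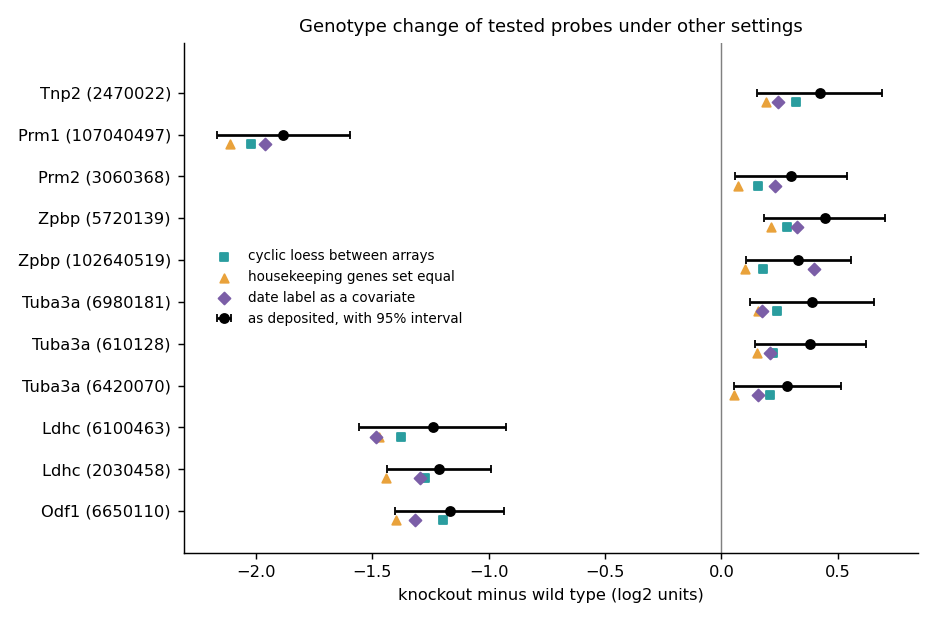
Knockout minus wild type (log2 units) for the 11 tested probes as deposited (black, with the 95% interval of the limma fit) and after cyclic loess (green squares), with housekeeping genes set equal (orange triangles) and with the date label as a covariate (purple diamonds). The changes of Prm1, Ldhc and Odf1 stay below −1 in each, while those of the probes higher in the knockout move towards 0, except for Zpbp probe 102640519 with the date label, and none changes sign.

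No difference between the sexes was detected. Prm1 read 9.24 and 9.27 in the wild-type females and 9.06 in the wild-type male, and Tnp2 read 8.81 and 9.02 in the females and 8.69 in the male. In a limma fit with genotype and sex, none of the 11 tested probes had a sex term past the threshold (0 also at an unadjusted p under 0.05), and the sex terms, female minus male, ran from −0.08 to +0.25. The same fit called 1 of all tested probes. With so few calls from few arrays, it cannot exclude a difference between the sexes in these genes.

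Tnp2, Prm3, Prm2 and Prm1 lie next to each other on chromosome 16, in this order, and of these 4 genes Prm1 fell. Prm3, a small acidic protein of spermatids, went from 7.27 ± 0.20 to 7.40 ± 0.11 (SD, n = 3 each), and its change of +0.13 did not pass (limma adjusted p = 0.429). Of the flanking genes, Socs1 and Litaf did not pass, whereas Gm9861 rose (+0.73, SE 0.10, limma adjusted p = 4.54e-04). Clec16a rose on its brighter probe (+0.76, SE 0.15, adjusted p = 0.0031), and its other tested probe missed the threshold (+0.26, adjusted p = 0.0543). Around all 10 genes, the nearest 2 genes on each side with a probe gave 33 neighbours. Of these 18 were tested, 4 rose and 3 fell, where 18.3% of tested named genes rose and 23.1% fell. Tnp1 lies beside Igfbp5 and Igfbp2, binding proteins of insulin-like growth factors, which both fell (−1.52, SE 0.28, and −1.51, SE 0.22; limma adjusted p = 0.00202 and 5.11e-04). Zpbp lies beside Spata48, which rose (+0.95, SE 0.11, adjusted p = 1.26e-04). Akap4 lies near the diacylglycerol kinase gene Dgkk, which rose (+0.56, adjusted p = 0.00553), and Tuba3a beside Ltbr, a cytokine receptor of thymic epithelium, which fell (−0.31, adjusted p = 0.0473).

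**Figure D4:**
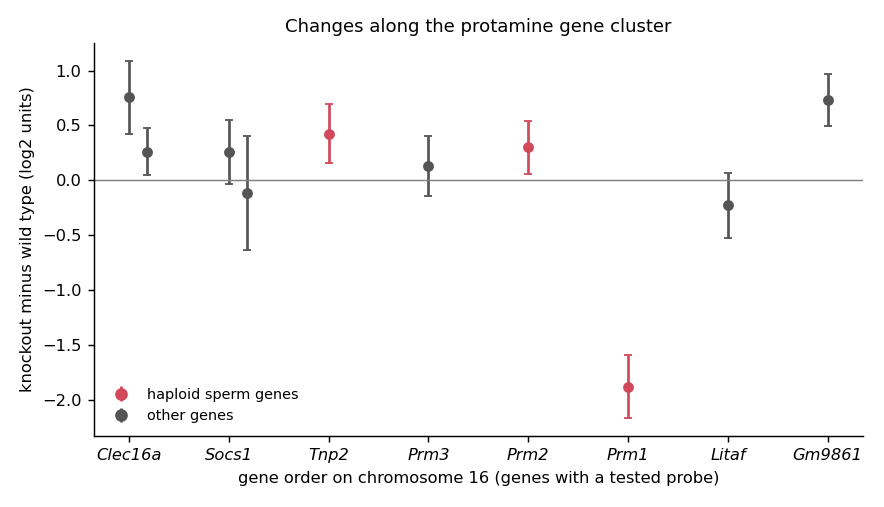
Knockout minus wild type (log2 units, with the 95% interval of the limma fit) for each tested probe of the genes along the protamine cluster of chromosome 16, in gene order and not to scale. Prm1 at −1.88 lies far below the other 7 genes, between Prm2 (+0.30) and Litaf (−0.23).

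Other genes of spermatids and sperm are counted here by the brightest tested probe of each gene, beside 18.3% rising and 23.1% falling of all tested named genes. Of 7 tested spermatid nucleus genes 2 rose and none fell (median +0.09). These were H1f7, a linker histone of spermatids (+0.60, SE 0.11, limma adjusted p = 0.00166), and Tssk3, a testis kinase (+0.37, SE 0.09, adjusted p = 0.0114). Crem, the activator of the haploid programme, did not pass on its brightest probe (−0.11, adjusted p = 0.399), while the other tested probe rose (+0.34, SE 0.09, adjusted p = 0.0191). Of 5 tested acrosome genes 4 fell (median −1.10), 2 of them tested through wild type only, and 9 of the 14 with a probe, among them Acr, Spam1 and Zpbp2, passed the bound on no array. Spaca3 was at least 2.46-fold lower and Spaca7 at least 1.72-fold lower, Acrv1 changed by −1.10 (SE 0.12) and Dkkl1 by −0.59 (SE 0.11).

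Of 12 tested sperm tail and energy genes 6 fell and 4 rose (median −0.26), where 23.1% of all tested named genes fell and 18.3% rose. Of those that fell, 2 (Tekt1 and Odf3) passed the filter only through the wild-type arrays and so had to differ. The 4 tektins of the list, filament proteins inside the microtubules of the tail, fell. Tekt1 was at least 2.94-fold lower, Tekt4 changed by −1.23 (SE 0.16), Tekt5 by −1.16 (SE 0.11) and Tekt2 by −0.61 (SE 0.14). The ion channel subunit Catsper4 changed by −0.91 (SE 0.11), but Catsper2 rose by 0.43 (SE 0.11). Besides Tuba3b, the testis cytochrome oxidase subunit Cox6b2 rose by 0.65 (SE 0.10), and Gapdhs, the sperm form of another glycolytic enzyme, rose by 0.38 (SE 0.11), while somatic Gapdh did not pass (limma adjusted p = 0.99). The somatic alpha-tubulins Tuba1a, Tuba1b and Tuba4a did not pass either, with changes of +0.24, +0.08 and −0.06. Tektins also occur in ciliated cells. Of 7 tested markers of those cells Dnaic1, Rsph1 and Trp73 fell and Rsph4a rose, and 1 of the 7 passed the filter only through wild type. Ccdc39 and Hydin passed the bound on no array. The mean level of the 10 genes of this list ranged from 7.92 to 8.11 over wild-type arrays and from 7.69 to 7.74 over knockout arrays. The part of ciliated cells in the tektin falls was not tested.

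Of 8 tested meiotic genes Piwil2 (at least 2.37-fold lower) and Piwil1 (at least 1.28-fold lower), which act in the piRNA pathway, fell. Both passed the filter only through the wild-type arrays and so had to differ. Spo11, which cuts DNA to start recombination, rose (+0.84, SE 0.15, limma adjusted p = 0.00215). Of 9 tested testis somatic genes Hsd17b3, Clu and Cyp11a1 fell and Inhbb rose (median −0.03). Hsd17b3 passed the filter only through the wild-type arrays and so had to differ. Cyp11a1 changed by −0.85 on its brightest tested probe and by −2.32 on another, which passed only through wild type. A further probe of Cyp11a1 went the other way without passing (+0.31, limma adjusted p = 0.0999). In the male accessory gland list 10 of 11 tested genes fell and none rose (median −1.56), although 7 of the 11 passed the filter only through the wild-type arrays and so had to differ, with Sbp at least 15.2-fold, Lcn8 at least 8.71-fold and Svs4 at least 8.35-fold lower. In the oocyte list 6 of 6 fell (median −1.92), of which 5 passed the filter in that way, with Padi6 at least 4.32-fold and Zp3, a protein of the egg coat, at least 3.21-fold lower. With 1 probe per gene, the 7 tested haploid sperm genes had 3 rises and 3 falls and a median of +0.30, beside 18.3% rising, 23.1% falling and a median of +0.02 over 11759 tested named genes. Of the 7 genes Ldhc and Odf1 passed the filter only through wild type, and list counts and medians are descriptions.

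**Figure D5:**
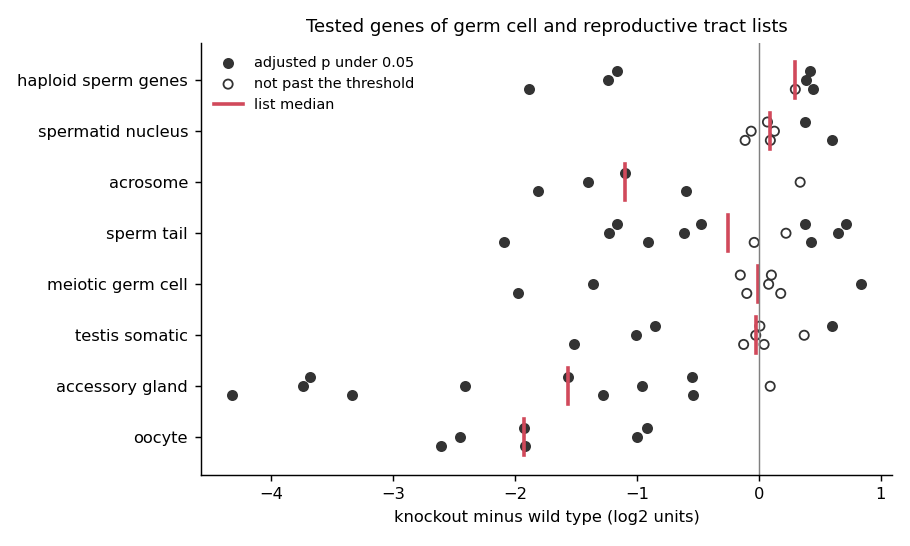
Knockout minus wild type (log2 units) for tested genes, 1 probe per gene, of the haploid sperm genes and 7 related lists (filled for limma adjusted p under 0.05, open otherwise, red bar for the list median). Accessory gland and oocyte genes lie almost wholly below 0, while the haploid sperm, spermatid nucleus, sperm tail and meiotic lists hold changes in both directions.

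Markers of other cells are given by level and by calls, beside 18.3% rising and 23.1% falling of all tested named genes. Thymocyte markers averaged 7.86 to 7.98 over wild-type and 7.52 to 7.95 over knockout arrays (9 genes, 6 tested, 2 fell, Rag1 and Rag2 below the bound throughout). Dendritic cell and macrophage markers averaged 7.87 to 7.96 and 7.55 to 7.59 (7 genes, 4 tested, 2 fell, with Itgax, Itgam and Xcr1 below the bound throughout). Markers of cortical thymic epithelium averaged 8.60 to 8.76 and 8.92 to 9.10 (5 genes, 4 rose). Psmb11 of this list did not pass, with a change of +0.07 (limma adjusted p = 0.723). B cell markers averaged 7.92 to 8.07 and 7.77 to 7.86 (3 genes, 2 tested, 1 rose and 1 fell, Ms4a1 below the bound throughout). Among the falls, Adgre1 of the dendritic cell and macrophage list and Cd79a of the B cell list passed the filter only through wild type and so had to differ. The part of these other cells in the changes of sperm genes was not tested.

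The genes whose pattern over the 6 arrays was most like that of a haploid sperm gene differed from gene to gene. By Pearson r over 6 arrays, Prm1 was closest to Dct, an enzyme of melanin synthesis (0.9995), and to the taste receptor Tas1r2 (0.998). Tnp2 was closest to Cdh8, a cadherin (0.994), Prm2 to Parp3 (0.993), Zpbp probe 102640519 to Urgcp (0.998) and Tuba3a probe 610128 to Snx11 (0.998). These values are descriptions over few arrays, in which all pairs share the difference between the genotypes.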

How the data were processed

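The values deposited by the authors came from Illumina bead arrays labelled with Cy3 and were taken as log2 from their range (maxima of 14.43 to 14.46). Their near-identical distributions on the 6 arrays, with medians of 6.55, are those of values normalized between arrays. BeadStudio and lumi appear in the submitters' processing notes. The exact transform, background correction and normalization were not given in the sources used here. Per the labels, RNA came from a column kit with a DNase step. The 24 columns of the other deposited tables, detection p-values included, carry names that match no sample label and were not used. The background mode (the densest value of all probes on an array) and the SD of values below it gave the bound. Genotype was the only term of a two-sided linear model (lmFit, eBayes) in limma 3.58.1 under R 4.3.3, a procedure tested on simulated data. P-values of the 19482 tested probes were adjusted by Benjamini-Hochberg, and 0.05 was the threshold. "At least" folds set the mean of the bright group against, per array of the dim group, the higher of the probe's value and the lowest signal above the bound. The small number of arrays limits the precision.

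The annotation gave 1 symbol to 32782 probes, several to 55 and none to 13782. No build is named for the arrays, and gene order came from RefSeq (GRCm38.p6). Genes named are the 10 on every probe, somatic relatives, up to 4 called genes of each list with the largest changes, the 2 nearest neighbours on each side, and the closest patterns over the arrays; Tekt2, Cox6b2, Catsper2, Gapdhs, Crem and the markers below the bound were named after their values were seen. Members and lists were chosen with earlier results of these data known. Alternatives covered normalization, background, filter, chip, sex, date label, replicate number, variance, array weights and each array left out. Same-numbered arrays of the genotypes did not deviate together (correlations of 0.20, −0.06 and −0.02), so the numbers pair nothing.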

Additional observations from a re-analysis of the deposited data

How the results depend on the processing

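Of 225 values of the 11 tested probes under 19 to 21 alternatives none changed sign, 176 kept their side of the threshold, 40 lost the call and 9 gained it. The 4 falls kept their call wherever tested, but 3 of them were tested because they were high in wild type alone, and with the filter at all 6 arrays only Prm1 (1 probe) was tested. The 5 rises became 0 by limma after cyclic loess (2 at an unadjusted p under 0.05) and with housekeeping genes set equal (0). Fits within a chip or with the date label rest on a single array of 1 genotype. They are part of the 225 values, and a lost or kept call in them says little. The rises numbered 4 with chip as a block and 4 with sex as a covariate. Over all tested probes 4038 rose and 3452 fell. The rises were 2344 after cyclic loess, 675 with housekeeping genes set equal, 1653 with the date label, 510 within chip 1 and 910 within chip 2. The falls were 2241 with the date label, 1456 and 1713 within the chips, and 1894 with the filter at all 6 arrays. Cyclic loess moved the median change of tested probes from +0.10 to 0.00 and housekeeping scaling to −0.13, although the 10 tested housekeeping genes had a median change of +0.03, so it acts as another offset. With housekeeping scaling each of the 11 tested probes also had the same, wider SE of 0.22 (Prm1 had 0.13 in the main fit). Lost calls there reflect this SE as well as the offset. Leaving out each array gave 1 to 5 rising and 4 falling probes among the haploid sperm genes, and 2459 to 4123 rises and 2762 to 3468 falls over all probes. Rises numbered 1 without knockout replicate 1, 1 without wild-type replicate 2 and 3 without knockout replicate 2. With the replicate number as a block, 5 rose and 4 fell (3970 and 3448 over all probes). Of 96 values of probes that were not tested 11 moved by over 1 SD between replicates. Probes near the bound give only limits.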
